A study of Mus musculus with 10 samples.

Results

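The genes described here are Atf5 and 7 further genes of the integrated stress response (ISR), Atf4, Ddit3, Ddit4, Trib3, Asns, Sesn2 and Eif4ebp1. They were chosen by symbol, and Atf5 was selected on its low level in Bbs8 KO stromal cells of these data. All 8 symbols are rows of a count table of 14623 genes, of which 12900 had a unique molecular identifier (UMI) in stromal cells. The question was whether the other genes of the ATF4 pathway follow Atf5, by cell class and by genotype.

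Bbs8 (Ttc8) encodes a subunit of the BBSome, the complex that carries membrane proteins in and out of the primary cilium. Cells of the stromal vascular fraction (SVF), which remain when fat is digested with collagenase and adipocytes are removed, came from inguinal white adipose tissue (iWAT). The donors were a Bbs8 KO (Bbs8-/-, lacking the gene in all tissues) and a Bbs8 WT (Bbs8+/+) mouse. Both mice were lean and 7 weeks old. Transcripts were captured with Seq-Well S3, a method that pairs single cells with barcoded beads in small wells.

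The series text names 1 mouse per genotype, so genotype cannot be told apart from the individual mouse, and no test was run on any difference. The labels list 5 samples per genotype, and the table holds 5 sets of cell barcodes per genotype (KO5_p2, KO5_p3, KO6_p1, KO6_p2, KO6_p3 and WT3_p1, WT3_p2, WT3_p3, WT4_p2, WT4_p3). The ranges over these sets are a technical spread. The meaning of the numbers in the set codes was not given, so values are also given by number. The table held 8985 Bbs8 KO and 1929 Bbs8 WT cells. Median depth was 251 and 278 UMIs per cell. Of 10847 barcodes, 36 occurred in more than 1 set, and these made up 103 cells, 28 of them stromal.

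Stromal cells, the class that holds the adipocyte precursors, comprised 1355 Bbs8 KO cells (15.1% of all) with 665498 UMIs and 611 Bbs8 WT cells (31.7%) with 283809 UMIs. Their median depth was 356 and 346 UMIs. Stromal UMIs per set were 99555 to 158647 (Bbs8 KO) and 22011 to 116102 (Bbs8 WT). All 8 stromal markers were detected in both genotypes, and their summed level, in counts per 1000000 UMIs (CPM), was 74899 (Bbs8 KO) and 85533 (Bbs8 WT). Markers of other cells were also present. The T cell list summed to 526 and 141 CPM, the B cell list to 711 and 180 CPM, the macrophage list to 497 and 144 CPM, and the endothelial list to 222 and 52.9 CPM, with Bbs8 KO first in each pair. The adipocyte list summed to 233 and 384 CPM, with 3 and 1 of its 6 markers above 0, Adipoq, Lep and Retn at 0 in both, and sets of 136 to 334 CPM and 56.0 to 1366 CPM. Ttc8 itself had 0 UMIs (Bbs8 KO) and 5 UMIs (Bbs8 WT) over all cells, and none in stromal cells of either, so it does not check the stromal labels.

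In the ISR, kinases that sense amino acid shortage, misfolded protein in the endoplasmic reticulum (ER), double-stranded RNA or heme deficiency phosphorylate the translation factor eIF2. General protein synthesis then drops, while mRNAs with short upstream reading frames, those of Atf4, Atf5 and Ddit3 among them, are translated better. The ATF4 protein raises transcription of genes for amino acid synthesis, amino acid transport and tRNA charging, and of regulators that restrain growth and the response itself. Since ATF4 and ATF5 are controlled largely through translation, a UMI count reports the mRNA and not the protein.

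ATF4 and its C/EBP partners bind a composite element, TGATGNAA, in several target promoters. RefSeq promoter windows on GRCm38.p6 (250 bases before to 50 bases after a start) were found for 7 of the 8 genes, in 8 windows, since Atf5 has a pair of starts. Eif4ebp1 had none. Read on both strands, the element lay in 2 of these windows, those of Asns and Trib3, and in 3.97% of all 32851 windows. These stretches are shown because they set the windows with a match beside the upstream Atf5 start, which had none. The element is in capitals, the Trib3 match is on the opposite strand, and all are written along the minus strand of the genome, on which these genes lie. A match is a description of letters and no evidence of binding.
Asns, chr6:7693214-7693243, from 34 to 5 bases before the start: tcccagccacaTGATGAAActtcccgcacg
Trib3, chr2:152344028-152344057, from base 4 to 33 after the start: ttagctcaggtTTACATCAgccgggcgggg
Atf5, chr7:44816659-44816688, the 30 bases before the start: gccgcgcgagggcggggcgcggagggatcc

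Atf5, a basic leucine zipper factor of the ATF4 family known for its part in the mitochondrial stress response and in adipocyte differentiation, lies on chromosome 7 at 44812256-44816658, minus strand (GRCm38, GENCODE vM21). Its 5′ end is overlapped on the other strand by Nup62 (44816088-44830812) and Il4i1 (44816387-44840809). In stromal cells Atf5 had 163 UMIs in Bbs8 KO and 177 UMIs in Bbs8 WT, although the Bbs8 KO cells held more UMIs in all.

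The 5 Bbs8 KO sets had 301, 217, 252, 223 and 244 CPM of Atf5 (KO5_p2, KO5_p3, KO6_p1, KO6_p2 and KO6_p3). The 5 Bbs8 WT sets had 728, 590, 545, 655 and 562 CPM (WT3_p1, WT3_p2, WT3_p3, WT4_p2 and WT4_p3). No Bbs8 KO set reached the lowest Bbs8 WT set, a separation that 1.19% of 6374 genes with a mean of at least 20 CPM shared in this direction. By number, Atf5 was at 254 CPM in KO5 and 240 CPM in KO6, and at 628 CPM in WT3 and 621 CPM in WT4. Pooled, it was at 245 and 624 CPM, for a log2 ratio of Bbs8 KO over Bbs8 WT of -1.33 (95% counting interval -1.66 to -1.03). These values are what selected the gene and are given as a description. Intervals throughout cover counting error only, and ratios use a pseudocount of 5 CPM. Nup62, a nuclear pore protein gene, was at 37.6 CPM and 28.2 CPM, and Il4i1 at 21.0 CPM and 17.6 CPM, with log2 ratios of 0.36 (-0.78 to 1.77) and 0.20 (-1.30 to 2.08). In sums over the cells of a class, fewer cells with a transcript and fewer copies per cell cannot be told apart.

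**Figure D1:**
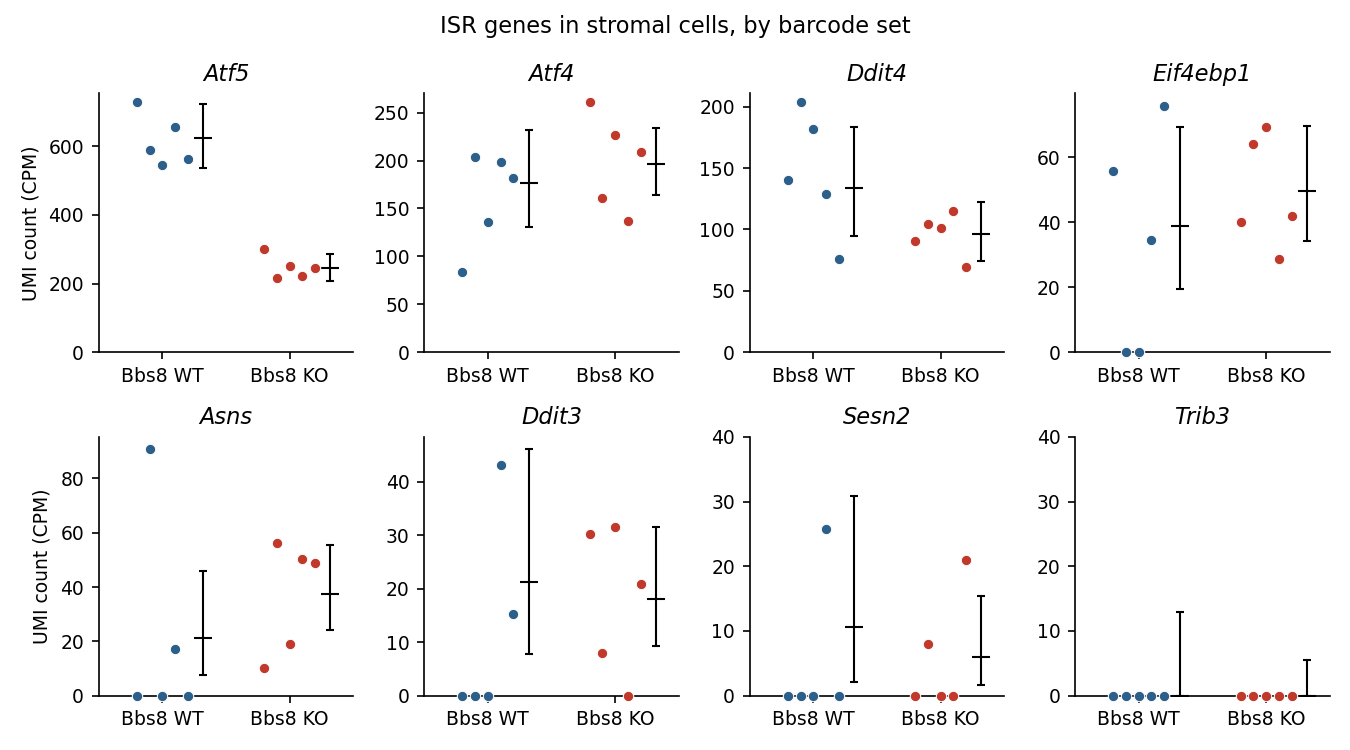
UMI counts in stromal cells as CPM (y axis, linear, a separate scale per gene) for the 8 genes. Each point is 1 barcode set, 5 per genotype (x axis), and the black bar is the pooled level with its exact Poisson 95% interval. For Atf5 the Bbs8 KO sets (217 to 301 CPM) sit below all Bbs8 WT sets (545 to 728 CPM), and for the other 7 genes the sets of the genotypes overlap.

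Among all genes tested in stromal cells, 12% were lower in Bbs8 KO by at least 1.5-fold and 20.7% were higher, with a median log2 ratio of 0.08. Atf5 ranked 74 from the lowest of the 6374 genes, and 18 of the 280 genes whose sets did not overlap. Its nearest neighbours among those were Gm10036 (-1.39) and Klf9 (-1.36) below it, and Gna11 (-1.27) and Camk2n1 (-1.27) above it. Klf9 encodes a zinc finger factor induced by glucocorticoids, and Gna11 a G protein subunit.

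Of the other 7 genes in stromal cells, 4 (Atf4, Ddit4, Asns and Eif4ebp1) reached a mean of 20 CPM, 0 of the 4 were lower in Bbs8 KO by at least 1.5-fold and 1, Asns, was higher. The corresponding background was 12% and 20.7% of genes. For none of the 7 were all Bbs8 KO sets below all Bbs8 WT sets (background 1.19%) or all above them (background 3.2%). The 4 genes together were at 380 CPM (Bbs8 KO) and 370 CPM (Bbs8 WT).

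Atf4, the transcription factor at the centre of the pathway (chromosome 15, 80255184-80257541, plus strand), had 131 and 50 UMIs. The Bbs8 KO sets had 261, 160, 227, 137 and 209 CPM in the order given above. The Bbs8 WT sets had 84.0, 204, 136, 198 and 182 CPM. The 2 ranges overlapped, and the lowest value was WT3_p1 with 3 UMIs. The pooled levels of 197 CPM and 176 CPM gave a log2 ratio of 0.16 (-0.32 to 0.66), which was 0.00 with the TMM factors of edgeR and -0.01 with the size factors of DESeq2.

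Ddit3 encodes CHOP, a C/EBP-family factor induced by ATF4 (chromosome 10, 127290774-127296288, plus strand). Another GENCODE gene carries the same symbol within it (127290829-127293753), so the counting may have split reads between them. It had 12 UMIs in Bbs8 KO and 6 UMIs in Bbs8 WT stromal cells, 18.0 CPM and 21.1 CPM, with set values of 0 to 31.5 CPM and 0 to 43.1 CPM. The log2 ratio was -0.18 (-1.76 to 1.47). Without the set WT4_p2, which held 5 of the 6 Bbs8 WT UMIs, it was 1.07.

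Ddit4 (REDD1), an inhibitor of mTORC1 that both ATF4 and glucocorticoids induce (chromosome 10, 59949669-59951834, minus strand), had 64 and 38 UMIs. The Bbs8 KO sets had 90.4, 104, 101, 115 and 69.7 CPM, and the Bbs8 WT sets had 140, 204, 182, 129 and 75.9 CPM. Of the Bbs8 WT sets 4 lay above every Bbs8 KO set, and WT4_p3 lay among them. The log2 ratio of 96.2 CPM over 134 CPM was -0.46 (-1.08 to 0.14). By number the gap was wider against WT3 (177 CPM) than against WT4 (110 CPM), with 98.1 CPM in KO5 and 95.2 CPM in KO6. With each cell thinned to 200 UMIs the log2 ratio was -1.09, and in cells with at least 200 genes it was 0.04.

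Trib3, a pseudokinase that ATF4 and CHOP induce and that feeds back on the response (chromosome 2, 152337422-152344032, minus strand), had 0 UMIs in stromal cells of either genotype. This allows up to 4.51 CPM (Bbs8 KO) and 10.6 CPM (Bbs8 WT). Over all cells it had 11 and 0 UMIs, 5 of them in mitotic cells.

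Asns, asparagine synthetase (chromosome 6, 7675169-7693254, minus strand), whose promoter holds the element shown above, had 25 and 6 UMIs. The Bbs8 KO sets had 1, 7, 3, 7 and 7 UMIs, the highest at 56.2 CPM in KO5_p3. Of the Bbs8 WT sets WT3_p2 had 90.7 CPM from 4 UMIs, WT4_p2 had 17.2 CPM from 2 UMIs, and the other 3 had none. The log2 ratio of 37.6 CPM over 21.1 CPM was 0.70 (-0.49 to 2.40). It was 1.67 without WT3_p2 and 0.57 with TMM factors, just short of 1.5-fold.

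Eif4ebp1, the inhibitor of cap-dependent translation 4E-BP1 (chromosome 8, 27260329-27276674, plus strand), had 33 and 11 UMIs. Its level was 28.7 to 69.3 CPM over the Bbs8 KO sets and 0 to 75.9 CPM over the Bbs8 WT sets. The log2 ratio of 49.6 CPM over 38.8 CPM was 0.32 (-0.66 to 1.49). Sesn2, sestrin 2, a stress-induced inhibitor of mTORC1 (chromosome 4, 132492032-132510501, minus strand), had 4 and 3 UMIs, 6.01 CPM and 10.6 CPM, too few for a direction.

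Within the stromal cells, 3 subclasses were separated by markers: P1-like (stem-like precursors, Dpp4 and Pi16), P2-like (committed preadipocytes, Icam1 and Col15a1) and P3-like (regulatory cells, F3 and Mmp3). Atf5 was lower in Bbs8 KO in all 3, which are parts of the cells in which it was selected, so these values are a description. In P1-like cells (483 and 211 cells) it was at 257 and 557 CPM, for a ratio of -1.10 (-1.67 to -0.56), with set values of 198 to 343 CPM and 201 to 939 CPM that overlapped. In P2-like cells (700 and 304 cells) it was at 258 and 739 CPM, for a ratio of -1.50 (-1.94 to -1.10), and the sets at 205 to 320 CPM and 543 to 835 CPM did not overlap. In P3-like cells (172 and 96 cells) it was at 158 CPM and 402 CPM from 13 and 18 UMIs, for a ratio of -1.32 (-2.50 to -0.24), with overlapping sets of 0 to 235 CPM and 0 to 753 CPM. The share of genes lower by at least 1.5-fold was 23.6% for P1-like, 17.2% for P2-like and 26.8% for P3-like cells, and 0.908% of genes separated the sets in this direction in P2-like cells. The intervals of the 3 subclasses overlapped, so no difference between them was detectable.

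Atf4 was at 214 CPM and 165 CPM in P1-like cells and at 211 CPM and 176 CPM in P2-like cells, log2 ratios of 0.37 (-0.45 to 1.29) and 0.26 (-0.41 to 0.98). In P3-like cells its 7 and 9 UMIs gave -1.20 (-2.90 to 0.35). Ddit4 had log2 ratios of -0.28 (-1.40 to 0.90), -0.65 (-1.51 to 0.19) and -0.14 (-1.75 to 1.60) in the 3 subclasses in turn.

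**Figure D2:**
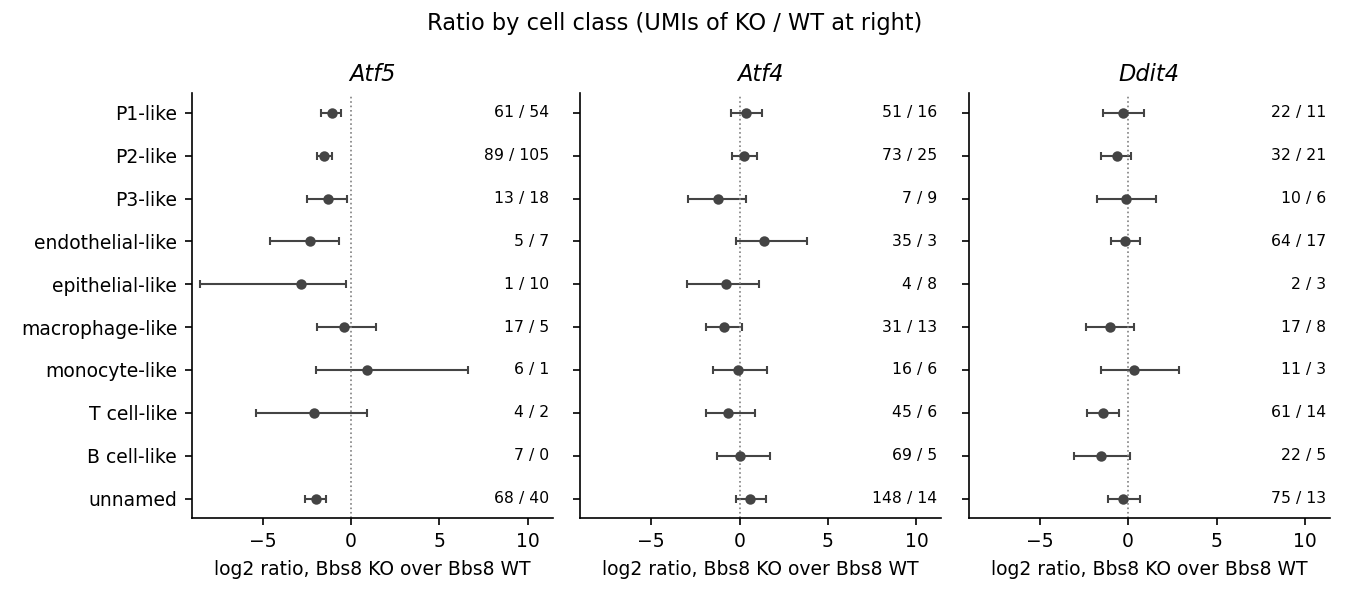
Log2 ratio of Bbs8 KO over Bbs8 WT (x axis) for Atf5, Atf4 and Ddit4 in each cell class (y axis), with UMIs of Bbs8 KO and Bbs8 WT at the right. Points are ratios with a pseudocount of 5 CPM, bars are its 95% intervals from counting, without the pseudocount, and a class with 0 UMIs in a genotype, or at most 3 in each, has no point. Atf5 lies left of 0 in the stromal subclasses (-1.10, -1.50 and -1.32), where Atf4 is at 0.37, 0.26 and -1.20. These subclasses hold the cells in which Atf5 was selected, so its values there are a description.

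Outside stromal cells Atf5 had at most 17 UMIs in any named class and genotype. Pericyte-like cells (100 and 34 cells) had 8 UMIs in Bbs8 KO, 173 CPM, and 0 UMIs in Bbs8 WT, which allows up to 252 CPM. Mitotic cells had 3 and 4 UMIs (-1.95, -4.84 to 0.50). Endothelial-like cells had 5 UMIs in Bbs8 KO and 7 UMIs in Bbs8 WT (21.7 CPM and 128 CPM, log2 ratio -2.32, -4.56 to -0.69). Their sets, at 0 to 30.5 CPM and 0 to 250 CPM, overlapped. Epithelial-like cells had 1 and 10 UMIs (-2.84, -8.54 to -0.29), with overlapping sets of 0 to 319 CPM and 0 to 253 CPM. The share of all genes lower in Bbs8 KO was not computed for the endothelial-like and epithelial-like cells. Macrophage-like cells had 17 and 5 UMIs (-0.39, -1.91 to 1.38). T cell-like cells had 4 and 2 UMIs (-2.08, -5.38 to 0.89) and B cell-like cells 7 and 0. Monocyte-like cells, with 6 and 1 UMIs, had a ratio above 0 (0.92, -1.96 to 6.61). For B cells the Bbs8 WT count of 0 allows up to 97.5 CPM, above the 16.8 CPM of Bbs8 KO, so no difference could be seen. The share of cells with an Atf5 UMI was 10.7% (9.10 to 12.5) of Bbs8 KO and 20.8% (17.6 to 24.2) of Bbs8 WT stromal cells, with exact Clopper-Pearson intervals. In T cell-like cells, which should hold little Atf5, it was 0.316% and 1.42% at median depths of 256 and 230 UMIs.

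After thinning to 200 UMIs, which left out 197 Bbs8 KO and 55 Bbs8 WT cells, the stromal shares were 4.84% (3.67 to 6.23) and 9.17% (6.91 to 11.9). Split by UMIs per cell, Atf5 was at 222 and 660 CPM in the shallowest stromal cells (119 to 272 UMIs), 197 and 510 CPM in the middle class (273 to 485), and 268 and 675 CPM in the deepest (486 to 2791). These are the UMIs that selected the gene, so the split is a description. Atf4 was at 84.5 and 159 CPM, 256 and 154 CPM, and 201 and 193 CPM in the same classes, with no constant direction. Ddit4 was lower in Bbs8 KO in the shallowest (42.3 and 159 CPM, from 4 and 7 UMIs) and middle cells (65.6 and 190 CPM, from 10 and 16 UMIs), and not in the deepest (119 and 96.4 CPM, from 50 and 15 UMIs).

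**Figure D3:**
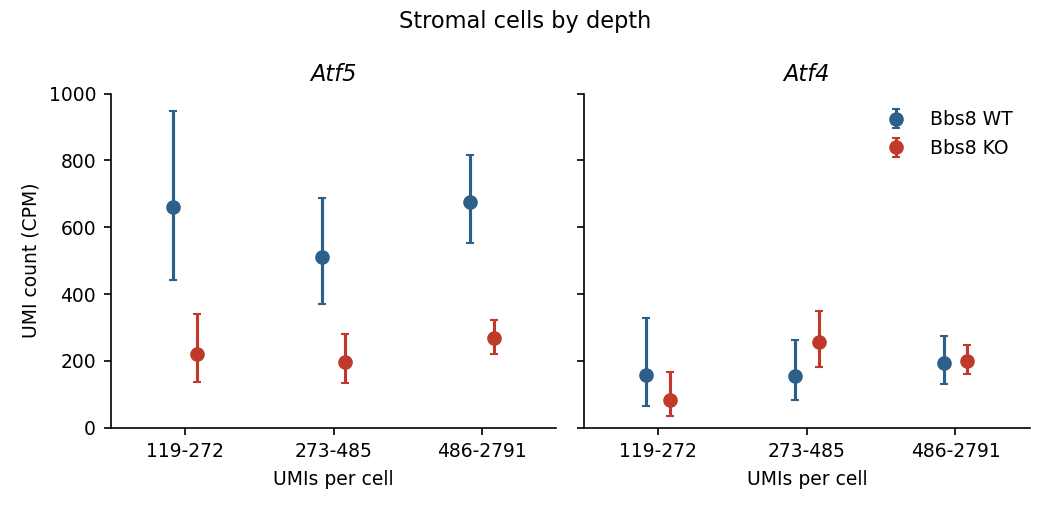
Atf5 and Atf4 in stromal cells as CPM (y axis, linear) in 3 classes of UMIs per cell (x axis), with exact Poisson 95% intervals. Atf5 is higher in Bbs8 WT (510 to 675 CPM) than in Bbs8 KO (197 to 268 CPM) in every class, and the Atf4 intervals overlap in every class.

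The clusters without leading markers, 3288 Bbs8 KO and 433 Bbs8 WT cells, also held Atf5, at 83.8 CPM from 68 UMIs and 345 CPM from 40 UMIs. Their log2 ratio was -1.98 (-2.62 to -1.44), against 19.4% of genes lower by at least 1.5-fold, and their sets at 39.8 to 109 CPM and 134 to 525 CPM did not overlap (1.55% of genes). Stromal marker RNA in these cells was also lower in Bbs8 KO, at 25871 CPM against 48753 CPM. Per 1000 stromal marker UMIs, Atf5 had 3.24 UMIs (2.51 to 4.11) and 7.07 UMIs (5.05 to 9.63) there. In named stromal cells it had 3.27 (2.79 to 3.81) and 7.29 (6.26 to 8.45), so on this scale the values of the first population lay within the intervals of the named cells.

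In other classes the remaining genes gave mixed ratios. Ddit4 in T cell-like cells was at 142 and 388 CPM, from 61 UMIs (Bbs8 KO) and 14 UMIs (Bbs8 WT), for a log2 ratio of -1.42 (-2.31 to -0.50). There 30.5% of genes were lower by at least 1.5-fold, and the sets at 90.8 to 180 CPM and 0 to 584 CPM overlapped. Eif4ebp1 in monocyte-like cells went the other way, with 20 and 1 UMIs for a log2 ratio of 2.54 (0.18 to 8.19). There 32.8% of genes were higher by at least 1.5-fold, and the sets at 0 to 264 CPM and 0 to 132 CPM overlapped. In endothelial-like cells Ddit4 was at 277 and 311 CPM, with a log2 ratio of -0.16 (-0.95 to 0.70). It was -1.53 (-3.06 to 0.14) in B cell-like, -1.04 (-2.38 to 0.33) in macrophage-like and 0.35 (-1.55 to 2.85) in monocyte-like cells, and -0.26 (-1.14 to 0.70) in the clusters without leading markers. Summed over all cells, whose mix of classes differed between the genotypes, Ddit4 was at -0.48 (-0.83 to -0.17) and Asns at 0.84 (0.04 to 2.36). Atf4 in endothelial-like cells had 35 and 3 UMIs, a log2 ratio of 1.39 (-0.20 to 3.81), opposite in sign to Atf5. In macrophage-like cells Atf4 was at -0.90 (-1.90 to 0.14), and in B cell-like cells at 0.03 (-1.26 to 1.70).

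Within stromal cells, the other 7 genes were at a somewhat higher level in cells with an Atf5 UMI than in cells without in Bbs8 KO and at a like level in Bbs8 WT, with overlapping intervals in both. In Bbs8 KO the other 7 genes together were at 520 CPM (397 to 669) in the 145 cells with an Atf5 UMI and at 380 CPM (330 to 435) in the 1210 without. In Bbs8 WT they were at 412 CPM (283 to 578) in 127 cells and 398 CPM (316 to 495) in 484 cells. Cells with an Atf5 UMI were deeper, with medians of 760 against 338.5 UMIs in Bbs8 KO and 498 against 318 UMIs in Bbs8 WT.

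Over 18 sums (9 cell classes in 2 genotypes), the genes whose log2 level was most like that of Atf5 among 6994 genes were Antxr1 (Pearson's r of 0.92), Fam114a1 (0.92), Clmp (0.91), Spon2 (0.90) and Ppib (0.90). The sums of a class share a cell type and those of a genotype share libraries. The genes most like Atf5 were picked over sums that include the stromal values that selected it. Their levels by genotype are thus a description. Atf4 had an r of 0.27, Ddit4 of 0.05, Eif4ebp1 of 0.16 and Ddit3 of -0.16. Antxr1, an anthrax toxin receptor that binds collagen, was at 526 CPM and 546 CPM in P1-like cells and at 339 CPM and 338 CPM in P2-like cells, and at 158 CPM and 335 CPM in P3-like cells. Spon2, an extracellular matrix protein gene, was lower in Bbs8 KO in the same subclasses, at 168 and 443 CPM, 356 and 542 CPM, and 146 and 223 CPM. Clmp, an adhesion molecule gene, was at 210 and 340 CPM, 197 and 359 CPM, and 170 and 246 CPM. Fam114a1 was at 227 and 258 CPM, 211 and 261 CPM, and 255 and 179 CPM, and Ppib, an ER cyclophilin gene, at 446 and 639 CPM, 434 and 676 CPM, and 631 and 648 CPM.

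The wider pathway was read from fixed lists of known genes. Of 49 listed ATF4 targets beyond the 8 genes, 43 were in the table and 30 passed 20 CPM. Of these 4 were lower and 4 higher by at least 1.5-fold, against 12% and 20.7% of all genes. Their median log2 ratio was 0.17, against 0.08 over all genes tested, and was 0.02 with TMM factors. Their 4 branches follow in turn.

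Genes of amino acid synthesis had a median of 0.63 over 5 genes, 3 of them higher by at least 1.5-fold (against 20.7% of all genes). Mthfd2, a mitochondrial enzyme of one-carbon metabolism, had 26 and 2 UMIs (log2 ratio 1.87, 0.47 to 5.59). Aldh18a1, which starts proline synthesis, had 38 and 10 UMIs (0.63, -0.34 to 1.87), and Gpt2, an alanine transaminase, 23 and 11 UMIs (-0.15, -1.26 to 1.02). Also past 1.5-fold was Shmt2 (23 and 3 UMIs, 1.35), named after its values were seen. Mthfd2 (39.1 CPM and 7.05 CPM) and Shmt2 (34.6 CPM and 10.6 CPM) passed the filter only through Bbs8 KO, where they were high. Psat1 (28.55 CPM and 17.6 CPM), also named after its values were seen, passed in the same way. The count and the median are thus in part set by the filter. The median had a spread over sets of -0.57 to 1.82 and was 0.26 without the set WT4_p3.

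The 3 amino acid transport genes that passed had a median of 0.46, and none was past 1.5-fold (against 12% lower and 20.7% higher of all genes). With stromal cells called by markers alone the median was -0.011, and with the clusters without leading markers it was 0.19. Slc38a2, a transporter of small neutral amino acids, was at 102 CPM and 66.9 CPM (0.58, -0.14 to 1.43). Slc1a5, a glutamine transporter, was at 116 CPM and 84.6 CPM (0.43, -0.22 to 1.18), with all Bbs8 KO sets above the Bbs8 WT sets, as for 3.2% of all genes. Slc3a2, the heavy chain of several transporters, was at 79.6 CPM and 56.4 CPM (0.46, -0.33 to 1.40).

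All 13 genes of tRNA charging and export passed, with a median of 0.14 that became -0.02 with TMM factors. The tRNA synthetases Nars (173 CPM in both, 0.00, -0.49 to 0.51), Sars (0.42, -0.13 to 1.04) and Eprs (284 CPM and 257 CPM, 0.14, -0.25 to 0.55) had the most UMIs. Gars, chosen after its values were seen, was the 1 gene past 1.5-fold (99.2 CPM and 52.9 CPM, 0.85). Thus 7.69% were higher and 0 lower, against 20.7% and 12% of all genes.

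The regulators and secreted factors had a median of -0.45 over 9 genes, which was 0.18 without the filter on low values and -0.05 with stromal cells called by markers alone. Of the 9 genes 4 were lower (44.4%, against 12% of all genes) and 0 higher (against 20.7%) by at least 1.5-fold. Nupr1, a stress-induced chromatin protein, was at 114 CPM and 271 CPM (-1.21, -1.72 to -0.77). Vldlr, the receptor for very low density lipoprotein, was at 137 CPM and 289 CPM (-1.05, -1.53 to -0.63). For both, all Bbs8 KO sets lay below all Bbs8 WT sets, as for 1.19% of all genes. The other 2, named after their values were seen, were the bZIP factors Jdp2 (27.0 CPM and 95.1 CPM, -1.64) and Cebpb (9 and 8 UMIs, -0.84). Cebpb, at 13.5 CPM and 28.2 CPM, passed the filter only through Bbs8 WT, where it was high, so the count is in part set by the filter. The autophagy receptor gene Sqstm1 was at 236 CPM and 247 CPM (-0.06, -0.48 to 0.36).

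**Figure D4:**
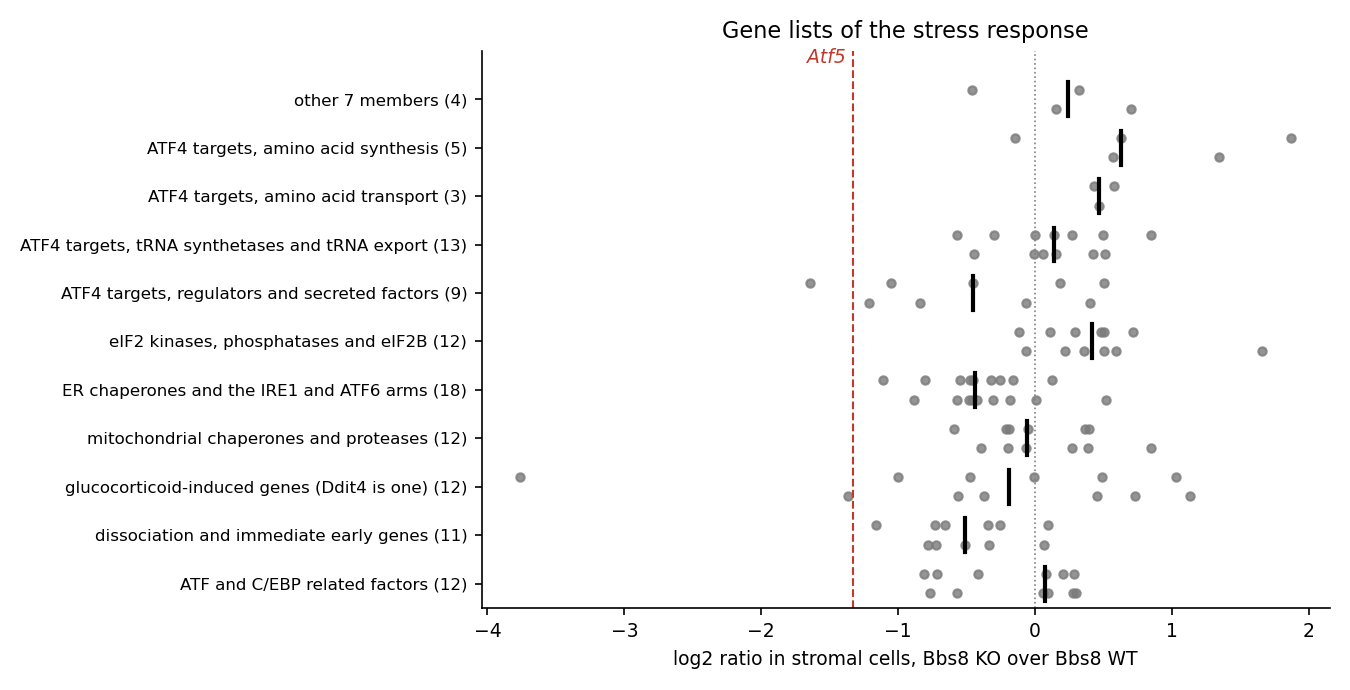
Log2 ratio of Bbs8 KO over Bbs8 WT in stromal cells (x axis) for every gene with a mean of at least 20 CPM in each list (y axis, number of genes in brackets). Grey points are genes, black bars are medians and the red dashed line marks Atf5 at -1.33. The medians of the ER chaperones (-0.44), of the regulators (-0.45) and of the immediate early genes (-0.51) lie left of 0, and those of amino acid synthesis (0.63) and transport (0.46) lie right of it. Without the filter on low values the regulators were at 0.18, and with stromal cells called by markers alone transport was at -0.011. The median of amino acid synthesis was in part set by the filter and had a spread over sets of -0.57 to 1.82.

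Upstream of ATF4, 12 genes for eIF2 kinases, phosphatases, eIF2 and its exchange factor eIF2B had a median of 0.42, with 0 lower and 3 (25%) higher by at least 1.5-fold, against 12% and 20.7% of all genes. The median was 0.21 with TMM factors and 0.15 in cells with at least 200 genes. Eif2s2, the beta subunit of eIF2, was at 194 CPM and 116 CPM (0.71, 0.18 to 1.34), with all Bbs8 KO sets above the Bbs8 WT sets (3.2% of all genes). Ppp1r15b, a subunit of the constitutive eIF2 phosphatase, had a log2 ratio of 0.51 (-0.20 to 1.33), and Ppp1cb, a catalytic subunit, of 0.48 (-0.16 to 1.21). The others past 1.5-fold, named after their values were seen, were Eif2b2 (22 and 2 UMIs, 1.66), which passed the filter only through Bbs8 KO, and Nck1 (37 and 10 UMIs, 0.59).

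ER chaperones and genes of the IRE1 and ATF6 arms of the response to misfolded protein had a median of -0.44 over 18 genes, 15 of them below 0. By at least 1.5-fold 3 (16.7%) were lower and 0 higher, against 12% and 20.7% of all genes, and for 4 all Bbs8 KO sets lay below all Bbs8 WT sets, against 1.19%. Hspa5 (BiP), the chief chaperone of the ER, was at 1527 CPM and 2266 CPM (-0.57, -0.71 to -0.42). Hsp90b1, the ER HSP90, was at 1349 CPM and 2917 CPM (-1.11, -1.25 to -0.97), and Calr, the lectin chaperone calreticulin, at 960 CPM and 1681 CPM (-0.80, -0.98 to -0.63). Pdia3 (-0.55) also had separate sets and Manf (-0.89) was also past 1.5-fold, both named after their values were seen.

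Mitochondrial chaperones and proteases, a setting in which Atf5 is known, had a median of -0.06 over 12 genes, with 1 lower and 1 higher by at least 1.5-fold, Htra2 (-0.59) and Clpp (0.85), both from at most 28 UMIs and named after their values were seen. The share of 8.33% in each direction was below the 12% and 20.7% of all genes. Hspa9, the mitochondrial HSP70, was at 192 CPM and 148 CPM (0.37, -0.13 to 0.92), the chaperonin Hspd1 had a log2 ratio of 0.27 (-0.45 to 1.08), and the protease Yme1l1 one of -0.20 (-0.68 to 0.29).

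Glucocorticoid-induced genes, another source of Ddit4 mRNA, had 3 of 12 lower and 3 higher by at least 1.5-fold (25% each, against 12% and 20.7% of all genes). Their median of -0.19 was 0.22 without the set WT4_p2. Klf9 was at 213 CPM and 557 CPM (-1.36, -1.72 to -1.05), Errfi1, a feedback inhibitor of the EGF receptor, at 430 CPM and 257 CPM (0.73, 0.37 to 1.13), and Cebpd at 180 CPM and 127 CPM (0.49, -0.04 to 1.09). Named after its values were seen, Zbtb16, a zinc finger factor, had 8 and 64 UMIs (-3.76, -5.50 to -3.17), and it passed the filter only through Bbs8 WT. For Klf9 and Zbtb16 all Bbs8 KO sets lay below all Bbs8 WT sets, as for 1.19% of all genes. Also named after their values were seen, Fkbp5 was at 45.1 CPM and 95.1 CPM, Sgk1 had a log2 ratio of 1.03 and Dusp1 of 1.13. Genes that tissue dissociation is known to induce had a median of -0.51, with 5 of 11 lower (45.5%, against 12% of all genes) and 0 higher (against 20.7%). Of these the immediate early gene Egr1 was at 185 CPM and 321 CPM (-0.78, -1.20 to -0.39), Jund at -0.34 (-0.93 to 0.23) and Jun at 0.10 (-0.46 to 0.69). The other 4 lower genes, named after their values were seen, were Hsph1 (-1.16), Hspa1a (-0.73), Fos (-0.72) and Dnajb1 (-0.66). Of these Hspa1a passed the filter only through Bbs8 WT. Handling of the 2 mice and their cells cannot be told apart from genotype.

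Among 12 genes of a list of further ATF, CREB, C/EBP and cap'n'collar factors, which also holds Cebpz, a CCAAT-binding factor outside the bZIP family, 3 (25%) were lower and 0 higher by at least 1.5-fold, against 12% and 20.7% of all genes, with a median of 0.07 that was -0.07 with TMM factors. Nfe2l1 was at 152 CPM and 204 CPM (-0.42, -0.91 to 0.06), Creb5 had a log2 ratio of 0.30 (-0.36 to 1.03) and Nfe2l2 (NRF2), the oxidative stress factor, one of 0.28 (-0.38 to 1.02). The 3 lower genes, named after their values were seen, were Cebpz (-0.81), Cebpa (-0.77), which passed the filter only through Bbs8 WT, and Creb3l1 (-0.71).

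Immune and endothelial marker RNA was higher in Bbs8 KO stromal cells, as given above, and its part in these ratios was not tested. Without stromal cells that held a UMI of an immune marker list (765 Bbs8 KO and 514 Bbs8 WT cells remained), the log2 ratio was -1.24 for Atf5, 0.36 for Atf4 and -0.86 for Ddit4.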

How the data were processed

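The deposited table holds UMI counts, which the authors made with bcl2fastq 2.20, the Drop-seq tools and a STAR alignment to mm10 (GENCODE vM16). Their methods state a depth step (downsampleBatches of scuttle) and removal of cells by gene number and mitochondrial share; whether the deposited counts precede the former is not given. Gene numbers per cell ran from 101 to 994 and the mitochondrial share reached 20.0%, and all cells were used. Set codes could not be tied to single labelled samples.

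The 10 sets were integrated in Seurat 5.3.0 (R 4.3.3; 2000 features, 30 dimensions, k.filter 100, k.weight 50) and clustered at resolution 0.8. Of 19 clusters, 17 had at least 60 cells, and 11 were named "-like" from marker lists: each took the list with the largest average log2 fold against the rest (pseudocount 20 CPM), if that average and 3 or more markers (3 or more UMIs each) were above 0.5. Stromal clusters were divided by the same rule. These thresholds were set in earlier work that had seen the clusters, and rebuilt names can differ from those of the study. Doublets were kept and no caller was run.

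UMIs were summed per genotype and class as CPM. Bbs8 KO was divided by Bbs8 WT on the log2 scale after adding 5 CPM to both. Poisson, conditional and Clopper-Pearson 95% intervals and the limit of 3 counts for a count of 0 cover counting error only. Levels of different genes are not compared. The code for ratios and intervals was tested on simulated counts with known folds, which bears on the code and not on these data. No p-value was computed. Alternatives used edgeR 4.0.16 (TMM) and DESeq2 1.42.0 (size factors). Genes named are the 8 members, the 3 with the most stromal UMIs in each list, the 4 neighbours of Atf5 and the 5 most like it; others are said to be named after their values were seen. Members and lists were chosen with earlier results of these data known.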

Additional observations from a re-analysis of the deposited data

Results flagged for a closer look

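Among 14 groups of 5 barcode sets (each gene with a UMI, in each genotype), 2 held a set far from the other sets of its genotype, where chance flags about 1 in 20 groups. Asns was at 90.7 CPM in stromal cells of WT3_p2, from 4 UMIs, while the other Bbs8 WT sets had 0 to 17.2 CPM. Sesn2 was at 25.8 CPM in stromal cells of WT4_p2, from 3 UMIs, while the other Bbs8 WT sets had none. Both rest on at most 4 UMIs.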

How the results depend on the processing

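No paired analysis was possible because each genotype is 1 mouse and no test was run. Of 528 values recomputed for 22 results, 493 stayed within the error of the reported value (the counting interval of a gene, the spread over sets of a list median, or 1.5 times a count), and 35 moved beyond it. Atf5 ran from -1.76 to -0.94 over 23 alternatives, which describes the values that selected it and is no sign of stability. Asns ran from 0.39 to 1.67, and the ratios of Atf4 (-0.36 to 0.36), Ddit3 (-0.47 to 1.07), Ddit4 (-1.09 to 0.04, the latter in cells with at least 200 genes) and Eif4ebp1 (-0.05 to 0.75) took both signs, as did several list medians below. The values that moved follow, and the cause was not tested unless stated. With cells thinned to 200 UMIs, which leaves fewer UMIs, the log2 ratios were -0.94 for Atf5, -0.36 for Atf4 and -1.09 for Ddit4, and the medians were -0.21 for the other 7 members, 0.71 for amino acid transport, -0.15 for tRNA synthetases and -0.63 for ER chaperones, and 1230 genes were lower by at least 1.5-fold. With stromal cells called by markers alone (1116 and 618 cells), the medians were -0.011 for transport, -0.10 for tRNA synthetases, -0.66 for ER chaperones and 0.22 for glucocorticoid-induced genes. With the clusters without leading markers, an alternative chosen after seeing the data, Atf5 was at -1.76, and the medians were 0.19 for transport, -0.62 for ER chaperones, 0.040 for glucocorticoid-induced genes and -0.24 for the ATF and C/EBP list. Before the pseudocount, TMM factors shifted ratios by -0.16 and DESeq2 size factors by -0.17, and less after it for low genes: the median of all genes became -0.080 and -0.090, 1161 and 1178 genes were lower in place of 762, and 980 and 971 were higher in place of 1319. With a pseudocount of 20 CPM 462 genes were lower. Without a filter 1284 were lower and 4839 higher, and the medians were 0.18 for regulators, 0.43 for all ATF4 targets and 0.38 for all genes; from 100 CPM, with fewer genes tested, 162 were lower and 135 higher, and the medians were -0.15 for the other members, -1.05 for regulators, -0.42 for glucocorticoid-induced genes, -0.57 for the ATF and C/EBP list and -0.058 for all genes. Leaving out each set in turn, the glucocorticoid-induced median ran from -0.27 to 0.22, the highest without WT4_p2. Depth limits Ddit3, Asns, Sesn2 and Trib3 most, at no more than 25 UMIs in stromal cells of either genotype.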
